A study of Mus musculus with 8 samples.

Results

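The 9 genes described here handle or answer to retinoic acid: the carriers Crabp1, Crabp2 and Stra6, the enzymes Dhrs3, Aldh1a2, Cyp26a1 and Cyp26b1, and the receptors Rara and Rarb. They were chosen by symbol, with earlier results of these data known, and all 9 were among the 14954 genes measured. The data are RNA-seq libraries of bulk cultures of A2 lox.Cre Bcl6 mouse embryonic stem cells, in which tetracyclines switch on an added Bcl6 gene, differentiated towards cortical progenitors in a defined medium that held 400 ng/ml cyclopamine, a hedgehog inhibitor, during its middle days. At day 12, 4 cultures had received 1 µg/ml doxycycline for 24 h to induce Bcl6 and 4 control cultures had received DMSO; both groups carry the transgene, and in each group the labels number the cultures as differentiations 1 to 4. There was no doxycycline-treated culture without the transgene, so Bcl6 and doxycycline cannot be told apart. The comparison asks which transcripts differ when Bcl6, a transcriptional repressor, is raised in these cells.

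Retinoic acid is made from vitamin A (retinol) inside cells. Retinol enters through carriers such as Stra6 and is oxidised to retinal, a step that the reductase Dhrs3 runs in reverse, and Aldh1a2 turns retinal into retinoic acid. The acid is held in the cytosol by Crabp1 and Crabp2, broken down by the Cyp26 enzymes, and bound in the nucleus by retinoic acid receptors such as Rara and Rarb, which sit on direct repeats of a short core motif in front of their targets. In the embryo the signal patterns the hindbrain and spinal cord, and Cyp26 enzymes keep it away from the anterior brain.

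The receptor element is shown first, because the genes that carry it close to their start are the usual transcriptional readouts of the acid. The 300-base windows from 250 bases before to 50 after RefSeq start sites (GRCm38.p6, the assembly that mm10 names) were searched on both strands for DR5, a direct repeat with a spacer of 5 bases in which each core motif was the sequence AGGTCA, the variant AGTTCA, the variant GGGTCA or the variant GGTTCA. Windows were found for 8 of the 9 genes, and none for Crabp2. Dhrs3, Rara and Stra6 have several windows each, and the shares given are of windows, not of genes. A DR5 stood in the windows of Rarb and Cyp26a1, against 0.0974% of all 32851 windows. Capitals mark the core motifs.
Rarb, chr14:16575513-16575529, minus strand, at -53 to -37 from the start site: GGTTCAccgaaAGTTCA
Cyp26a1, chr19:37697776-37697792, on the strand opposite to the gene, at -32 to -16 from the start site: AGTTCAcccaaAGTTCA
The same search for repeats with a spacer of 1 or 2 bases found none in the windows of the 8 genes. The pattern TTCNNNGAA, whose form Bcl6 and STAT sites share, was in 1 of the windows of Rara and in that of Rarb, where it overlaps the DR5, and in 8.30% of all windows. The longer form TTCCTAGAA was in 0.411% of all windows and in none of these. The single core motif AGGTCA was in 1 window of Rara, and in 16.3% of all windows.

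For 2 of the genes that changed, the 250 bases before the most upstream RefSeq start site are given so that the sequence stands beside the values. Neither stretch overlaps an annotated exon or holds any of the patterns searched, so none of its letters is in capitals.
Crabp1, chr9:54764498-54764747, plus strand: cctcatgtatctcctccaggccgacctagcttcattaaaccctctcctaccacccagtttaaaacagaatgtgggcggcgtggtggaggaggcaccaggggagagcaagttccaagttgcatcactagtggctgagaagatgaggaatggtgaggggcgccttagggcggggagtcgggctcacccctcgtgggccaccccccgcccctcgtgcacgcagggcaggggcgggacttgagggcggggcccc
Dhrs3, chr4:144892577-144892826, plus strand: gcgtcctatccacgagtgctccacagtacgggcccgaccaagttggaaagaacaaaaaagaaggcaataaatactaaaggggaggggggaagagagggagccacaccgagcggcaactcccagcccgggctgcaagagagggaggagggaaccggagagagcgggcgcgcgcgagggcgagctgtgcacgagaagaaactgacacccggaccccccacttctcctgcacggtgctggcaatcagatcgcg
The stretch of Cyp26b1, the other gene called, overlaps an annotated exon and is not printed. A missing match says only that these letters are not in the window.

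Libraries held 9.42 M to 9.74 M reads in the controls and 10.3 M to 15.0 M in the induced group. Bcl6 rose from 6.49 ± 0.491 to 392 ± 47.1 CPM (CPM, the value per 1 M of its library's total; SD, n = 4 per group). Among markers of the labelled cell type, Sox2, Nes, Vim and Pax6 were measured in every library, whereas the cortical gene Emx1 had no row among the genes analysed here. In the marker lists that follow, rose and fell mean called by limma at an adjusted p under 0.05. Of all genes, 4.55% were called higher and 2.26% lower. Summed over the 8 markers of a list, radial glia genes ranged from 1519 to 1930 CPM in controls and from 1066 to 1396 CPM after induction (5 of 8 fell). Neuronal genes ranged from 767.9 to 918.6 and from 1235 to 1473 CPM (5 of 8 rose). None of the 8 markers of fibroblasts and meninges with a row was called by limma (3 at an unadjusted p under 0.05, none by limma-voom on recovered reads), and their sums overlapped (513.4 to 664 CPM in controls, 561 to 678 CPM after induction). Of the pluripotency markers 4 of 8 rose and 1 fell (sums of 1983 to 2224 and 1856 to 2199 CPM). Telencephalon markers (1 of 4 measured rose, 1 fell) summed to 226.9 to 261 CPM in controls and to 185 to 194.3 CPM after induction. These sums did not overlap and were lower after induction. The sums of 3 other lists did not overlap between the groups and were higher after induction. Neural crest markers (2 of 5 measured rose) summed to 74.7 to 88.6 and 92.1 to 119.6 CPM, and surface ectoderm markers (2 of 4 rose) to 440.4 to 549.1 and 570.4 to 670.5 CPM. Markers of mesoderm and endoderm (1 of 7 rose, 1 fell) summed to 97.4 to 122.6 and 142.9 to 155.3 CPM; the one that rose was T (brachyury), from 20.9 ± 3.13 to 59.9 ± 2.29 CPM. The part of these cell type markers in the results below was not tested. Control 1 stood apart for short transcripts: the 1492 genes with the shortest ones were above the control mean there, by a median of 0.31 (log2), against -0.13 to -0.04 in the other controls.

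Of the 9 retinoic acid genes, 1 rose and 2 fell on induction of Bcl6, and 6 did not pass the test (limma on log2 values, adjusted p under 0.05 over all genes). Crabp1 rose 2.00-fold, Dhrs3 fell 1.77-fold and Cyp26b1 fell 2.32-fold, all as ratios of mean CPM. The 3 called genes compare with 6.81% of all genes called in either direction, 4.55% higher and 2.26% lower. As the genes were chosen with earlier results of these data known, this comparison is no test of the set. The median log2 fold change of the 9 genes was 0.04, beside 0.03 for all genes. The induced and control libraries did not overlap in 3 of the 9, against 17.1% of all genes. The count of called genes was 1, Crabp1, without induced library 1.

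**Figure D1:**
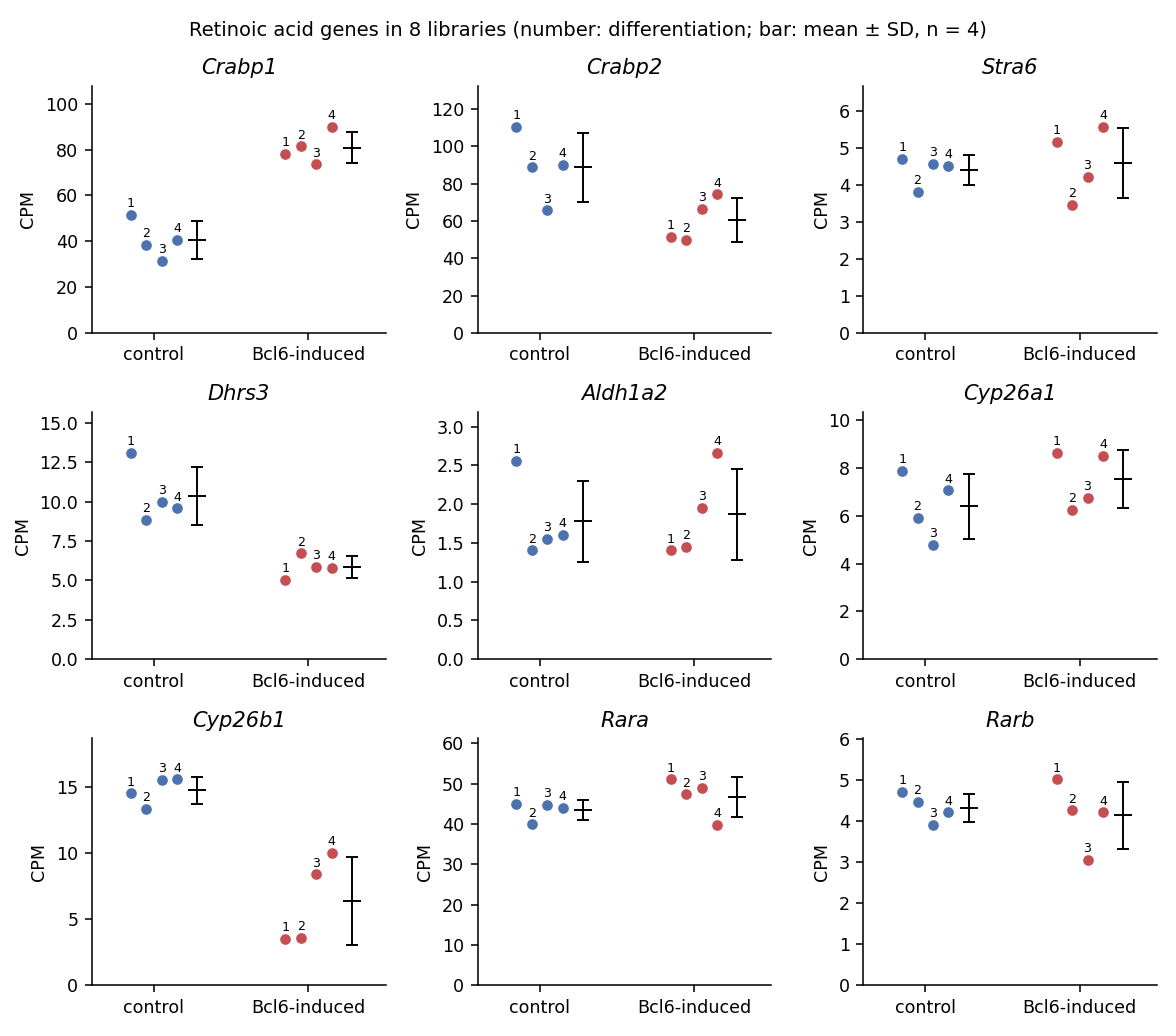
Level of each of the 9 genes in CPM (y axis) in the 4 control libraries (blue) and the 4 Bcl6-induced libraries (red), with the differentiation number above each point and the mean ± SD (n = 4) as a bar. The groups are apart for Crabp1, Dhrs3 and Cyp26b1, and induced libraries 1 and 2 lie below 3 and 4 for Cyp26b1, Crabp2 and Aldh1a2.

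Per kilobase of the longest transcript, the binding proteins were the most abundant of the set. In the controls Crabp2 stood at 95.2 ± 19.6 CPM per kb, Crabp1 at 50.5 ± 10.4 and Rara at 12.8 ± 0.707 (SD, n = 4), and the ranges of these 3 genes did not overlap. Dhrs3, Cyp26a1 and Cyp26b1 followed at 4.44, 3.58 and 3.27 CPM per kb, with ranges that overlapped from 1 gene to the next. Stra6 and Rarb, at 1.43 and 1.39 CPM per kb, also overlapped. Aldh1a2, the synthetic enzyme, was the lowest at 0.786 CPM per kb, with a highest control of 1.13 that lay under the lowest of Rarb (1.26). In the induced libraries Crabp1, at 101 ± 8.54 CPM per kb, stood above Crabp2 at 65.1 ± 12.7.

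Crabp1 (ENSMUSG00000032291, chromosome 9, 54764748 to 54773110, plus strand, mm10) encodes a small cytosolic protein that binds retinoic acid. It was at 51.5, 38.5, 31.4 and 40.5 CPM in controls 1 to 4 and at 78.3, 81.4, 73.6 and 89.8 CPM in the induced libraries 1 to 4. Every induced library lay above every control. The log2 fold change was 1.02 ± 0.13 (SE; 95% interval 0.72 to 1.31; limma adjusted p = 0.0028). Leaving out each library in turn kept the call, and the highest adjusted p was 0.016 (without control 2). With 305 to 485 reads per control and 830 to 1176 per induced library, Crabp1 was among the better counted of the 9. As these are bulk cultures, more cells with the transcript and more transcript per cell cannot be told apart, here and for the other genes. The rise of the neuronal markers given above accompanied that of Crabp1. So did the higher sums of the neural crest, surface ectoderm, and mesoderm and endoderm markers. The part of these markers in the result was not tested.

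Crabp2 (ENSMUSG00000004885, chromosome 3, 87948666 to 87953376, plus strand) encodes the related protein that delivers retinoic acid to its receptors. It was at 110.3, 88.7, 65.6 and 90.0 CPM in controls 1 to 4 and at 51.5, 50.0, 66.6 and 74.2 CPM in the induced libraries 1 to 4. Controls 1, 2 and 4 lay above every induced library, and control 3 lay below induced libraries 3 and 4. The log2 fold change of -0.54 ± 0.17 (SE; 95% interval -0.91 to -0.18) did not pass the test (limma adjusted p = 0.074). It passed without control 3 (adjusted p = 0.03), and the other single leave-outs gave 0.054 to 0.21. It also passed with array weights, which let the spread of each library set its weight (adjusted p = 0.01).

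The balance of the 2 binding proteins was steadier within the controls than either gene. The CPM of Crabp1 divided by that of Crabp2 was 0.467, 0.434, 0.478 and 0.450 in controls 1 to 4, a mean of 0.457 ± 0.0193 (SD, n = 4). In induced libraries 1 to 4 it was 1.52, 1.63, 1.10 and 1.21, a mean of 1.37 ± 0.249 (n = 4). Every control thus held more Crabp2 than Crabp1 and every induced library more Crabp1 than Crabp2 on the CPM scale, and the same order held per kilobase. Both together came to 129.1 ± 26.5 CPM before and 141.4 ± 15.8 CPM after induction, and the ranges overlapped (96.97 to 161.8 and 129.8 to 164.1 CPM). This ratio was chosen after the values were seen and is given with no test. Both transcripts are among those 1492 shortest, and both were highest in control 1 of the controls, the library in which short transcripts lay high. With the trend on transcript length and GC content taken off each library, the log2 fold change was 1.07 for Crabp1 (adjusted p = 0.00018) and -0.45 for Crabp2 (adjusted p = 0.057).

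**Figure D2:**
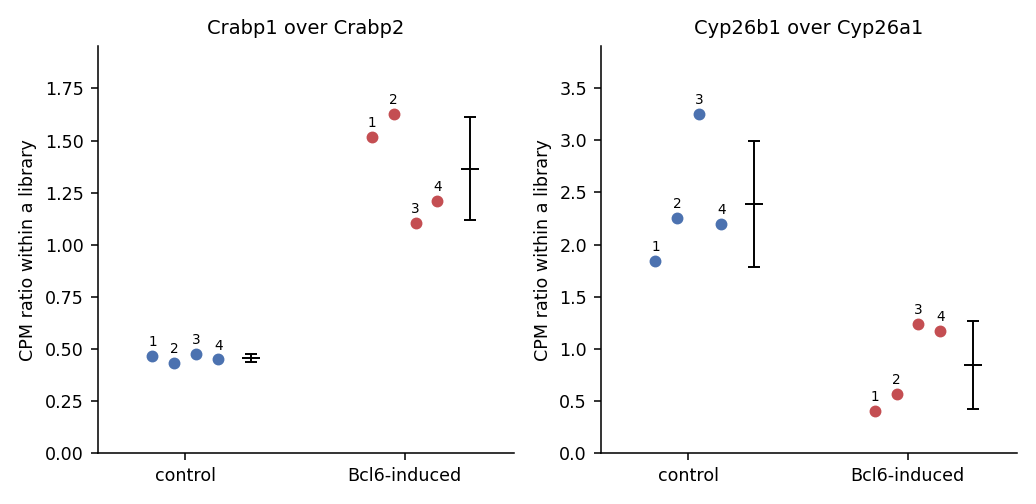
Ratio of 2 genes' CPM within each library (y axis), for Crabp1 over Crabp2 (left) and Cyp26b1 over Cyp26a1 (right), in control (blue) and Bcl6-induced (red) libraries with the differentiation number above each point and the mean ± SD (n = 4) as a bar. The Crabp ratio is 0.434 to 0.478 in all 4 controls and above 1 in all 4 induced libraries, and the Cyp26 ratio is lower in every induced library than in any control.

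Stra6 (ENSMUSG00000032327, chromosome 9, 58063788 to 58153996, plus strand), the cell surface receptor that takes up retinol, was at 4.71, 3.81, 4.57 and 4.51 CPM in controls 1 to 4. In induced libraries 1 to 4 it was at 5.16, 3.46, 4.21 and 5.56 CPM, a range that enclosed the controls. The log2 fold change was 0.04 (95% interval -0.35 to 0.44; limma adjusted p = 0.91), on 36 to 77 reads per library. The interval leaves room for a difference of up to that size in either direction.

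Dhrs3 (ENSMUSG00000066026, chromosome 4, 144892827 to 144928209, plus strand) encodes a reductase that turns retinal back to retinol and so limits the supply for retinoic acid; it is itself known to be induced by the acid. It was at 13.1, 8.87, 9.98 and 9.57 CPM in controls 1 to 4 and at 5.01, 6.71, 5.86 and 5.81 CPM in the induced libraries 1 to 4. All induced libraries lay below all controls, and the 4 induced values were close together. Dhrs3 fell by 0.81 ± 0.15 on the log2 scale (SE; 95% interval -1.15 to -0.47; limma adjusted p = 0.013). Without induced library 1 it missed the threshold (adjusted p = 0.053), and it held in the other 7 leave-outs. Without control 1, its highest library, the log2 fold change was -0.70 (adjusted p = 0.014).

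Aldh1a2 (ENSMUSG00000013584, chromosome 9, 71215789 to 71296243, plus strand), the main enzyme that makes retinoic acid in the early embryo, was the least abundant of the 9. It was at 2.56, 1.40, 1.56 and 1.60 CPM in controls 1 to 4 and at 1.40, 1.45, 1.95 and 2.66 CPM in the induced libraries 1 to 4, on 13 to 27 reads per library. The groups overlapped throughout, and the log2 fold change was 0.06 with a 95% interval of -0.55 to 0.67 (limma adjusted p = 0.92). These data leave room for a change anywhere within that interval. The other 2 enzymes of this step, Aldh1a1 and Aldh1a3, had means of 0.789 ± 0.391 and 1.12 ± 0.250 CPM in controls and of 1.49 ± 0.498 and 1.13 ± 0.607 CPM after induction (SD, n = 4 each; limma adjusted p = 0.16 and 0.85). None of the 3 synthetic enzymes reached 3 CPM in any library.

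Cyp26b1 (ENSMUSG00000063415, chromosome 6, 84571414 to 84593908, minus strand), which oxidises and so inactivates retinoic acid, changed most of the 9. It was at 14.5, 13.3, 15.5 and 15.5 CPM in controls 1 to 4, the narrowest control spread for its level among the 3 genes called. In induced libraries 1 to 4 it was at 3.51, 3.56, 8.37 and 9.98 CPM, below every control, and libraries 1 and 2 held far less than 3 and 4. Cyp26b1 fell by 1.36 ± 0.31 on the log2 scale (SE; 95% interval -2.05 to -0.67; limma adjusted p = 0.028). The call was lost without any 1 of controls 2, 3 and 4 or induced libraries 1 and 2 (adjusted p of 0.056 to 0.083), while the log2 fold change stayed between -1.63 and -1.13 in all 8 leave-outs. It was also lost without a trend of variance on expression (adjusted p = 0.059).

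Induced libraries 1 and 2 were thus the lower pair for Cyp26b1. The Bcl6 level was 393, 422, 427 and 325 CPM in the induced libraries 1 to 4. The lower pair of Cyp26b1 was also that of the radial glia markers. Their summed level was 1066 and 1079 CPM in induced libraries 1 and 2 and 1396 and 1378 CPM in 3 and 4. Fabp7, a radial glia gene, stood at 9.47, 14.0, 76.6 and 87.4 CPM in the same order. Not every gene of that list had this lower pair. Slc1a3 was at 86.5, 83.8, 89.4 and 86.6 CPM and Sox2 at 263.9, 261.8, 263.5 and 232 CPM. Crabp2 had the same lower pair, with 51.5 and 50.0 against 66.6 and 74.2 CPM, and so did Aldh1a2, with 1.40 and 1.45 against 1.95 and 2.66 CPM. The other 6 genes did not show it. The 5 measured markers of posterior neural tissue, none of them called by limma (2 at an unadjusted p under 0.05, 1 by limma-voom), summed to 36.8, 38.2, 51.1 and 57.9 CPM in the same order, against 55.8 to 65.7 CPM in the controls. The part of these markers and of the Bcl6 level in the fall of Cyp26b1 and in its lower pair was not tested.

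Cyp26a1 (ENSMUSG00000024987, chromosome 19, 37697798 to 37701536, plus strand), the other main Cyp26 enzyme and a direct target of the receptors through the DR5 element shown above, was at 7.87, 5.91, 4.77 and 7.07 CPM in controls 1 to 4. It was at 8.62, 6.26, 6.76 and 8.52 CPM in the induced libraries 1 to 4, and the groups overlapped. The log2 fold change was 0.25 ± 0.18 (SE; 95% interval -0.16 to 0.65; limma adjusted p = 0.44). The CPM of Cyp26b1 divided by that of Cyp26a1 was 1.84 to 3.25 in the controls and 0.407 to 1.24 in the induced libraries, without overlap. Per kilobase of transcript, where levels of the pair can be compared, this ratio was 0.733, 0.898, 1.296 and 0.876 in controls 1 to 4 and 0.162, 0.226, 0.493 and 0.466 in the induced libraries. Cyp26a1 was thus the more abundant of the pair per kilobase in 3 of 4 controls and in all 4 induced libraries. As for the binding proteins, this ratio was formed after the values were seen. On the CPM scale both enzymes together came to 21.1 ± 1.63 in controls and 13.9 ± 3.76 after induction (SD, n = 4). Every induced library lay below every control on that scale (9.82 to 18.5 against 19.2 to 22.6 CPM). The longer transcript of Cyp26b1 (4.495 kb, against 1.791 kb for Cyp26a1) weighs more in such a sum. Per kilobase the summed level of induced library 4 lay above that of control 2, so the groups overlapped.

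Rara (ENSMUSG00000037992, chromosome 11, 98927818 to 98974942, plus strand), the broadly expressed receptor, varied little. It was at 45.0, 39.9, 44.7 and 44.0 CPM in controls 1 to 4 and at 51.0, 47.3, 48.9 and 39.7 CPM in the induced libraries 1 to 4. Induced libraries 1 to 3 lay above every control and library 4 below every control. The log2 fold change was 0.10 ± 0.09 (SE; 95% interval -0.10 to 0.31; limma adjusted p = 0.54).

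Rarb (ENSMUSG00000017491, chromosome 14, 16430839 to 16819156, minus strand), the receptor gene that retinoic acid itself induces through the DR5 element shown above, was at 4.71, 4.46, 3.91 and 4.21 CPM in controls 1 to 4. It was at 5.01, 4.26, 3.06 and 4.21 CPM in the induced libraries 1 to 4, a range that enclosed the controls. The log2 fold change was -0.08 ± 0.18 (SE; 95% interval -0.47 to 0.31; limma adjusted p = 0.82), on 34 to 75 reads per library. Of the annotated exon bases of Rarb, 34.1% are shared with the opposite-strand gene Top2b, and although the library kit keeps strand, counting by strand is not stated, so some reads of Rarb may belong to Top2b. Both genes with a DR5 at their start thus had groups that overlapped, and their intervals allow changes of up to 0.65 for Cyp26a1 and -0.47 for Rarb on the log2 scale.

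**Figure D3:**
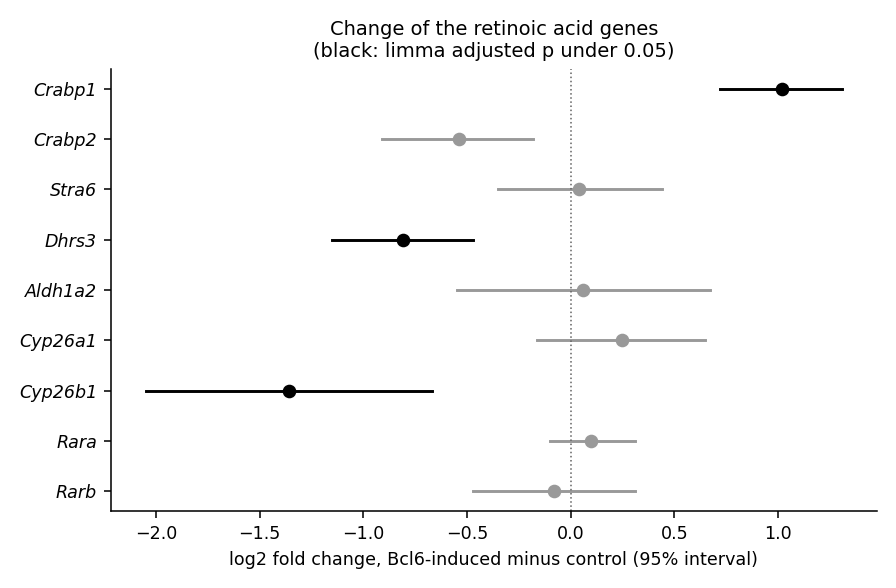
Log2 fold change of each gene, Bcl6-induced minus control (x axis), with its 95% interval from limma, in black for the 3 genes called and in grey for the 6 others. The intervals of Crabp1, Dhrs3 and Cyp26b1 lie farthest from 0, and the interval of Crabp2, -0.91 to -0.18, also leaves out 0 although its adjusted p is 0.074.

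Among the other genes of retinol transport, synthesis, breakdown and receptor action, 32 of the 43 listed had a row. Of these, 2 rose, none fell by limma (3 were lower at an unadjusted p under 0.05, none by limma-voom) and 30 did not pass the test, so 6.25% were called, near the 6.81% of all genes, and the median log2 fold change was 0.16. The called genes were Cyp1b1, a cytochrome that can oxidise retinol as well as steroids and xenobiotics, and Ncoa3, a coactivator of nuclear receptors. Cyp1b1 rose from 6.64 ± 1.26 to 10.1 ± 1.04 CPM (log2 fold change 0.62 ± 0.16, limma adjusted p = 0.041), and Ncoa3 from 101.7 ± 20.7 to 146.1 ± 5.41 CPM (0.55 ± 0.13, adjusted p = 0.034; SD, n = 4 each). Each lost its call in 5 of 8 leave-outs (control 2 and each induced library), and the highest adjusted p, 0.13 for Cyp1b1 and 0.11 for Ncoa3, came without induced library 1. Neither gene acts in the retinoid pathway alone.

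Other receptors and an early enzyme did not pass the test. Rarg had a mean of 38.4 ± 4.82 CPM before and 46.2 ± 2.17 CPM after induction (limma adjusted p = 0.12), and its partner receptor Rxra at 50.9 ± 3.91 and 55.3 ± 1.34 CPM (adjusted p = 0.36; SD, n = 4 each). Rdh10, the retinol dehydrogenase of the embryo, whose step Dhrs3 reverses, was at 59.1 ± 6.31 and 48.4 ± 3.39 CPM (adjusted p = 0.096).

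Of 33 genes listed as raised by retinoic acid in embryonic or neural cells, 20 had a row; the 13 without one were Hoxa3, Hoxa4, Hoxa5, Hoxb1 to Hoxb5, Hoxd3, Hoxd4, Cdx1, Rarres1 and Rarres2. Of the 20, 1 rose, 1 fell and 18 did not pass the test, so 10.0% were called, against 6.81% of all genes, with a median log2 fold change of 0.05. Bhlhe40, a basic helix-loop-helix repressor first found as a retinoic acid target, rose from 34.9 ± 1.79 to 48.9 ± 4.42 CPM (log2 fold change 0.48 ± 0.09, limma adjusted p = 0.011; SD, n = 4 each). It kept its call without any single library. Foxa1, a forkhead factor of endoderm and floor plate, fell from 24.3 ± 3.29 to 15.8 ± 4.10 CPM (-0.65 ± 0.17, adjusted p = 0.048), with groups that overlapped, and lost its call in 5 of 8 leave-outs (controls 2 and 4 and induced libraries 1, 2 and 3), the highest adjusted p being 0.15 without induced library 1. Both genes answer to many other signals. Of the uncalled genes, Nr2f1 was at 50.5 ± 6.8 CPM in controls and 32.4 ± 9.5 CPM after induction, without overlap (limma adjusted p = 0.056). Gap43 was at 61.1 ± 13.2 and 85.5 ± 19.7 CPM, with overlap (limma adjusted p = 0.15; SD, n = 4 each). Under array weights Nr2f1 and Gap43 were both called.

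**Figure D4:**
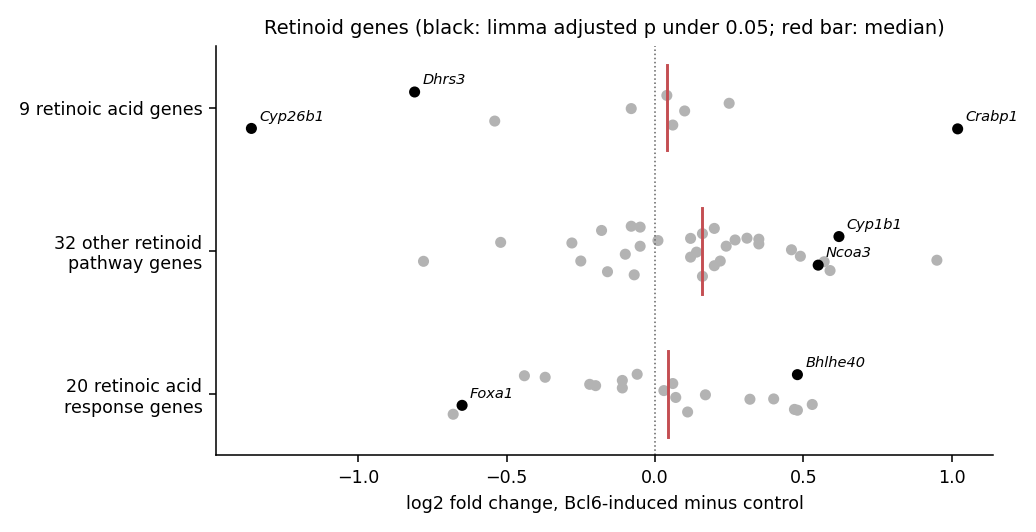
Log2 fold change, Bcl6-induced minus control (x axis), of the 9 retinoic acid genes, 32 other retinoid pathway genes and 20 retinoic acid response genes, 1 point per gene with a vertical offset for legibility, black where called and with the list's median as a red bar. The called genes are named, and the list medians are 0.04, 0.16 and 0.05.

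For each called gene the 3 genes with the nearest pattern were sought among 11868 others with a mean of at least 100 scaled reads, by the root mean square difference over the 8 libraries of log2 values taken from each gene's own control mean. For Crabp1 they were Pkdcc, Lhx2 and Tubb3 (differences of 0.132, 0.135 and 0.139). Pkdcc is a secreted kinase, Lhx2 a homeobox gene of the forebrain and Tubb3 the neuronal tubulin. For Dhrs3 they were Tex21, the carbonic anhydrase Car14 and the mitochondrial protein Fam162a (0.125, 0.146 and 0.147).

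For Cyp26b1 the nearest were Ildr2, Sox2ot and Ndnf (0.162, 0.163 and 0.169). Sox2ot is a long non-coding RNA whose gene overlaps Sox2, and Ndnf is a secreted neuron-derived factor. Sox2ot was at 12.9, 13.4, 13.1 and 17.6 CPM in controls 1 to 4 and at 3.96, 4.01, 8.07 and 9.12 CPM in the induced libraries 1 to 4. Its lower pair in induced libraries 1 and 2 follows from how it was chosen, by nearness to Cyp26b1 in these same libraries, and is no separate observation.

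**Figure D5:**
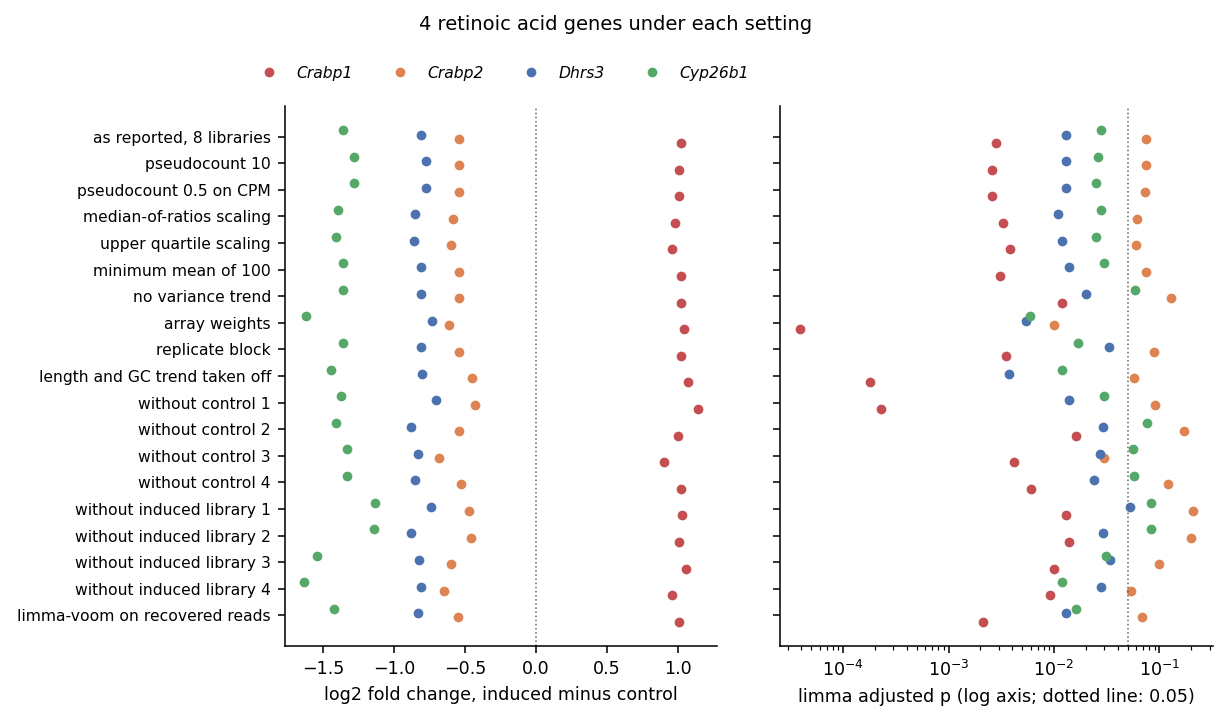
Log2 fold change (left) and limma adjusted p on a log axis (right) of Crabp1, Crabp2, Dhrs3 and Cyp26b1 as reported and under 18 other settings (y axis), with the threshold of 0.05 as a dotted line. The sign of each gene was the same at every setting shown, and the adjusted p of Crabp1 stayed under 0.05 throughout, between 3.9e-05 and 0.016.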

How the data were processed

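The authors deposited 1 table of 14954 genes; STAR 2.5.3a, HTSeq 0.9.1, edgeR 3.20.1 and mm10 are named in the submitters' processing notes, with no role or order. Decimal commas had become column breaks, so each line was rejoined and matched to its CPM values, and the authors' statistics were not used. The deposited values are a score and not raw counts: reads scaled to about 20 M per library (sums of 19.93 M to 19.96 M) and rounded up. They lay on multiples of a library-specific step for at least 99.6% of genes, which gave the reads per library; a value counted only if rounding up gave the deposited number. The plan's count tests were for raw counts and were not run.

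The test was limma 3.58.1 (R 4.3.3) on log2(value + 1) with a variance trend, Benjamini-Hochberg adjustment over all genes and no filter (lowest mean 15.1 scaled reads); fold changes of low genes are understated. The script was tested on simulated data. CPM is the value over its library's total; lengths are those of the longest GENCODE vM21 transcript. Genes with no row were not analysed here. How far the differentiations were independent is not described; the p-values rest on the scatter among these 8 libraries, which may be partly technical. Genes and lists were chosen with earlier results of these data known. Named were the 9 genes, Bcl6, every called gene of 2 lists and the 3 nearest patterns of each called gene. Of 8 fixed uncalled genes 5 were named, the others not being reported here. Fabp7, T, Emx1, Sox2, Nes, Vim, Pax6 and Slc1a3 were added from the marker lists after their values were seen. The same holds for Nr2f1 and Gap43 from the response list. Leave-outs and other alternatives numbered 18.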

Additional observations from a re-analysis of the deposited data

How the results depend on the processing

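Over all genes 1019 were called, with 2507 under array weights, 1963 after removal of the length and GC trend, and 308 (without induced library 1) to 1697 (without control 1) in the leave-outs. The higher share of calls, 66.8% (681 higher, 338 lower), was 55.8% (536 and 424) under median-of-ratios scaling and 51.4% (501 and 474) under upper quartile scaling. The retinoic acid genes called numbered 1 to 3 in the leave-outs, against 3. The pathway genes called, 2 as reported, were 1 under upper quartile scaling, 5 after removal of the length and GC trend, 0 with limma without the variance trend (8 at an unadjusted p under 0.05), and 0 to 2 in the leave-outs (6 to 10 at an unadjusted p under 0.05 where limma called 0). The response genes called, also 2, were 1 without the variance trend, 6 under array weights and 1 to 3 in the leave-outs. Limma-voom on the recovered reads, chosen after seeing the data, called 1092 genes and the same 3 retinoic acid genes.

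Uncalled genes near 0 changed sign: Stra6 gave -0.01 (log2) under upper quartile scaling, -0.02 without control 2 or induced library 1 and -0.05 without induced library 4. Aldh1a2 gave -0.04 without control 2 and -0.12 without induced library 4, and Rarb 0.05 without induced library 3. Aldh1a3 gave 0.02 under array weights and 0.33 without induced library 4. Over the leave-outs the ranges reached 0.17 for Stra6, 0.24 for Aldh1a2, -0.18 for Rarb and -0.46 for Aldh1a3. The causes were not tested.

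Same-numbered libraries had correlations of their deviations of 0.03, 0.011, -0.028 and 0.374, with 1 of 4 over 0.1, and 3 of 8 libraries correlated best with their own number. With the differentiation number as a replicate block 827 genes were called and the same 3 retinoic acid genes (adjusted p = 0.0035, 0.033 and 0.017 for Crabp1, Dhrs3 and Cyp26b1), 2 pathway genes and 3 response genes. Planned count tests on raw counts were not run, since the values were not raw counts. A minimum mean of 100 left Aldh1a2, Rarb and Stra6 untested. Reads per library were 13 to 27 for Aldh1a2, 36 to 77 for Stra6 and 34 to 75 for Rarb.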
